A study of Rattus norvegicus with 6 samples.

Results

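The genes described here are 10 genes of the smooth muscle contractile apparatus: the kinase gene Mylk, the tropomyosin genes Tpm1 and Tpm2, the actin gene Acta2, the thin filament genes Tagln and Cnn1, the myosin chain genes Myh11 and Myl9, the desmin gene Des and the potassium channel gene Kcnmb1. They were taken as every probe of the series table whose only platform symbol was one of the 10, which gave 15 of 33849 probes. They cover 9 of the 10 genes, of 12198 genes with such a probe in all. Des had no probe with that symbol alone, and 1 further probe was left out because it carried several symbols, among them Acta2. The genes were chosen by values of these same arrays, on which Mylk had been seen lower and Tpm1 higher in the hypertensive strain. All strain differences of the 15 probes are therefore descriptions and carry no test.

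RNA came from brainstem cells grown in culture. They were taken from the spontaneously hypertensive rat (SHR), inbred for high blood pressure, or from its normotensive comparison strain, Wistar Kyoto (WKY). Each strain had 3 single-colour CodeLink arrays, and each array was hybridised with RNA pooled from 3 dishes. The labels name no treatment, sex, animal age or culture time, and leave it unsaid if separate litters or culture days were used for the pools. Test values therefore measure the spread between these pools, which may be technical, and the number of arrays limits the precision.

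In smooth muscle, calcium bound to calmodulin activates myosin light chain kinase, the Mylk product, which phosphorylates the regulatory light chain of myosin (Myl9 in smooth muscle) so that the heavy chain Myh11 can pull on actin filaments. Tropomyosin, calponin (Cnn1) and transgelin (Tagln) lie along those filaments, desmin forms intermediate filaments, and Kcnmb1 encodes the accessory beta subunit that raises the calcium sensitivity of the BK potassium channel, whose opening relaxes the cell. In brain tissue several of these genes mark the muscle cells of arterioles, but the 10 are not confined to muscle. Acta2, Tagln and tropomyosins are also transcribed in pericytes, fibroblasts and cells spreading in culture. Many of the 10 genes are activated by serum response factor (Srf) with its partner myocardin (Myocd) at a DNA element called the CArG box.

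The contractile genes did not differ together between the strains. All 3 Mylk probes were dimmer in SHR, both Tpm1 probes were brighter in SHR, and Tpm2, Tagln, Cnn1, Myh11 and Myl9 had overlapping arrays. The 3 SHR values lay wholly below the 3 WKY values at 4 of the 15 probes (3 of Mylk and 1 of Acta2) and wholly above them at 3 (2 of Tpm1 and 1 of Kcnmb1). Over all 33249 probes tested, 7.48% lay wholly below and 6.35% wholly above. In limma, 0 of the 33249 probes passed an adjusted p of 0.05, and 2545 (7.65%) had an unadjusted p under 0.05. The median difference was -0.30 (log2, SHR minus WKY) over the 15 probes and -0.01 over all probes tested, and 9 of the 15 differences were below 0, against 51.6% of all probes. With only the brightest probe of each gene, 5 of the 9 genes were above and 4 below 0 and the median was 0.04. The 15-probe values count genes with several probes, such as Mylk, more than once.

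**Figure D1:**
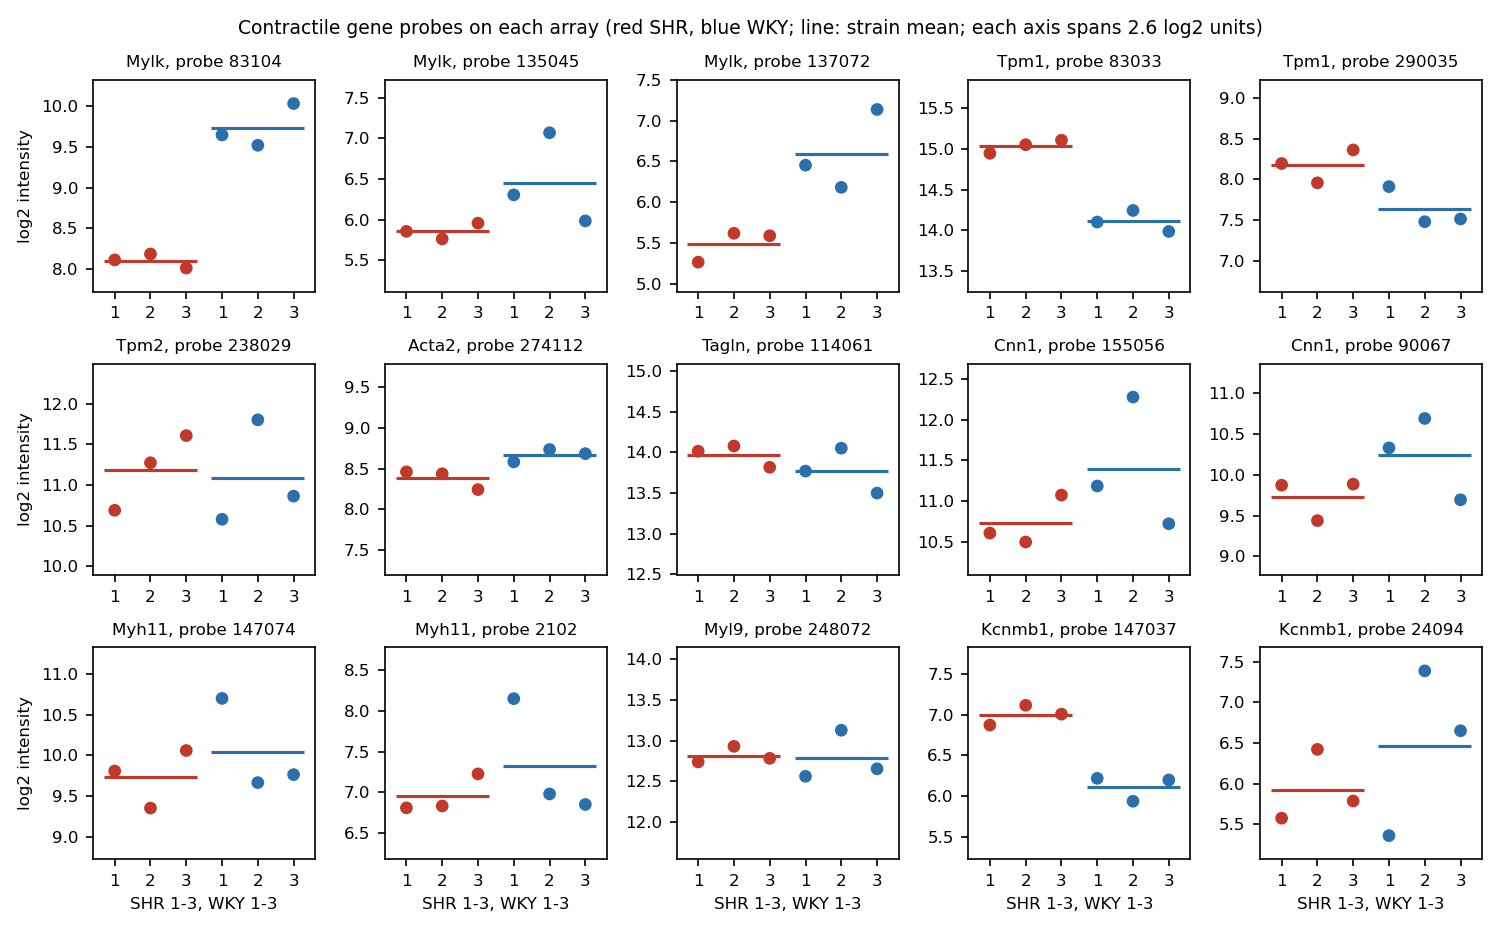
Log2 intensity (vertical axis) of each of the 15 probes on the 3 SHR arrays (red) and the 3 WKY arrays (blue), with a line at each strain mean and axes of equal span. Mylk probe 83104 and Tpm1 probe 83033 show separated strains. The panels of Cnn1 probe 155056, Tpm2 and Myh11 show 1 WKY array standing high among overlapping values. At Cnn1 probe 90067, WKY 1 and WKY 2 lie above the SHR arrays and WKY 3 lies among them.

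The start regions of Mylk and Tpm1, the genes with the largest separated differences, and of Acta2, a well studied CArG box gene, are printed here to show annotated start regions that were searched for the CArG form. The arrays measured transcripts and do not tie a difference to any start. RefSeq (build GRCr8) gave a window of 300 bases, 250 before and 50 after a start site, for 7 of the 10 genes. The Mylk and Tpm1 windows belong to starts inside the annotated gene, and the Acta2 window to the outer end of its gene. Capitals mark 10-base stretches of the CArG form in which 1 base of the A and T core may be another base. The windows are Mylk at chr11:79498525-79498824, Tpm1 at chr8:76543366-76543665 and Acta2 at chr1:241172454-241172753, all on the minus strand.
Mylk: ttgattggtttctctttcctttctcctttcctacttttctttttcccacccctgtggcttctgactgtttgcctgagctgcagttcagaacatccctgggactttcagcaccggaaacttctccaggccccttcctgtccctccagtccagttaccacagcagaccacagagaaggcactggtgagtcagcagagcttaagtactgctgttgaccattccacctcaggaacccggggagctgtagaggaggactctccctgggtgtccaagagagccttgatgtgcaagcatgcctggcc
Tpm1: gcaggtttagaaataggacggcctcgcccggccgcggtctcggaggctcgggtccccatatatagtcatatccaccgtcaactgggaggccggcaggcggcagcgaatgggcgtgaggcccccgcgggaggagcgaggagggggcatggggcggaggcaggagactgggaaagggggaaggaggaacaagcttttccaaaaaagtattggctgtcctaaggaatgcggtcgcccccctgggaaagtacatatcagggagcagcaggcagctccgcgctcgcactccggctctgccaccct
Acta2: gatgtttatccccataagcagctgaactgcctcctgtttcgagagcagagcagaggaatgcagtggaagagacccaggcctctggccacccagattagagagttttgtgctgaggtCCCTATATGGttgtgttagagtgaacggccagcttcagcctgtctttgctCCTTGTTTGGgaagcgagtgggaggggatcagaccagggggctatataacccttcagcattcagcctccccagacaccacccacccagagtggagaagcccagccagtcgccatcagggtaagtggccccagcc

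A strict CArG box was in none of the 7 windows and in 1.64% of all 33469 windows. With 1 other base allowed in the core, the form was in 1 of the 7 windows and in 9.42% of all windows. That window was Acta2, with CCCTATATGG at 134 to 125 bases and CCTTGTTTGG at 84 to 75 bases before the start. The looser form was searched after the strict one had found none. The form reads the same on both strands, and the absence of a match describes these windows only.

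Mylk was the gene with the largest difference among the 9. Its brightest probe, 83104, gave 276.5, 290.8 and 257.9 intensity units in SHR and 801.1, 733.9 and 1046.8 in WKY. Every WKY array was above every SHR array, and the SHR arrays lay close together. In log2 units the SHR mean was 8.10 ± 0.09 and the WKY mean 9.73 ± 0.27 (SD, n = 3). They differed by -1.63 ± 0.17 (limma's SE, SHR minus WKY, as in all differences that follow), which is 3.10-fold more signal in WKY.

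The other Mylk probes were dim, and both pointed the same way. Probe 137072 gave 38.4, 49.1 and 48.1 units in SHR and 87.7, 72.6 and 140.9 in WKY. Its log2 difference was -1.10 ± 0.27, and -0.64 with 50 units added before log2. Probe 135045 gave 57.9, 54.3 and 62.1 units in SHR and 79.0, 134.1 and 63.3 in WKY. Its strains were separated only by the margin between SHR 3 and WKY 3, and its difference of -0.59 ± 0.28 was -0.29 without WKY 2. Within WKY the probes disagreed on the order of the arrays. WKY 3 was the highest at probes 83104 and 137072 and the lowest at probe 135045, where WKY 2 was the highest. The gene gives rise to long and short forms of the kinase and to telokin, a short product of its end, and the platform annotation does not say which of them each probe reads.

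Tpm1 encodes the alpha tropomyosin, a coiled coil along the actin filament that sets when myosin can bind. Probe 83033 gave 31585, 33974 and 35322 units in SHR and 17592, 19422 and 16238 in WKY. The SHR arrays were all above the WKY arrays, with means of 15.04 ± 0.08 (SD, n = 3) and 14.11 ± 0.13 and a difference of 0.92 ± 0.13, or 1.90-fold. Probe 290035, much closer to background, gave 293.2, 248.7 and 329.1 units in SHR and 240.8, 178.6 and 182.8 in WKY. It was again higher on each SHR array, by 0.54 ± 0.18, though SHR 2 was only just above WKY 1. The probes are listed for different transcript records, and the platform annotation does not say which forms of the Tpm1 transcript each reads. Over the 16 alternative settings the differences lay between 0.86 and 1.02 for probe 83033 and between 0.44 and 0.68 for probe 290035. The sign says little here. Leaving out 1 array cannot change it at separated probes, and several settings altered only the SE or the set of probes.

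Tpm2, the beta tropomyosin, did not show the separation of Tpm1. Its probe gave 1651, 2475 and 3119 units in SHR and 1529, 3567 and 1862 in WKY. The lowest and the highest value were both from WKY, and the difference of 0.11 ± 0.38 changed sign without SHR 3, WKY 1 or WKY 3. Of the other tropomyosins, which were not among the 10 genes, Tpm3 gave -0.10 ± 0.13 and Tpm4 0.17 ± 0.13 (adjusted p = 0.851 and 0.758 in limma over all probes). The second probe of Tpm3 gave -0.12.

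Acta2, the smooth muscle actin gene, was separated between the strains by a small margin in the normalized values. In the unnormalized per-sample intensities the strains overlapped, with SHR 2 (390.8) above WKY 3 (364.1). After normalization its probe gave 352.2, 346.5 and 302.8 units in SHR and 383.4, 426.1 and 411.3 in WKY. The difference of -0.29 ± 0.13 lay between -0.33 and -0.17 over 16 alternatives. Actin genes are near-identical in sequence, so a probe can also bind transcripts of other actins. Acta1, the skeletal muscle actin, gave -0.11 ± 0.23 (adjusted p = 0.912 in limma over all probes), and Actb, Actg1, Actg2 and Actc1 had no probe with 1 symbol that was tested.

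Transgelin and calponin are actin-binding proteins much used as smooth muscle markers. Tagln gave 16535, 17283 and 14422 units in SHR and 13958, 16963 and 11574 in WKY. The strains overlapped, and the difference of 0.20 ± 0.18 was 0.06 without WKY 3 and 0.34 without WKY 2. Cnn1 probe 155056 gave 1561, 1447 and 2157 units in SHR and 2331, 4970 and 1690 in WKY. WKY 2 stood far above the others and WKY 3 lay within the SHR range, so the difference of -0.67 ± 0.41 was -0.23 without WKY 2 and -1.01 without WKY 3.

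The second Cnn1 probe, 90067, is listed for the same transcript record as the first and followed it. It gave 937.5, 693.3 and 946.0 units in SHR and 1288, 1655 and 827.9 in WKY. WKY 2 was again the highest array and WKY 3 the lowest of its strain. The difference was -0.51 ± 0.28, and it was -0.28 without WKY 2 and -0.78 without WKY 3.

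Myh11, the smooth muscle myosin heavy chain, had 2 probes for 1 record. Probe 147074 gave 896.4, 653.7 and 1068 units in SHR and 1663, 812.3 and 869.5 in WKY. Probe 2102 gave 112.1, 113.9 and 149.7 units in SHR and 284.1, 126.2 and 115.4 in WKY. WKY 1 was the highest of the 6 arrays at both probes, and the other WKY arrays lay within the SHR range. The differences were -0.30 ± 0.33 and -0.37 ± 0.36, and without WKY 1 they were 0.03 and 0.04.

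Myl9, the regulatory light chain that the Mylk product phosphorylates, did not differ beyond its spread. Its probe gave 6841, 7812 and 7054 units in SHR and 6054, 8962 and 6452 in WKY. WKY 1 was the lowest and WKY 2 the highest of all arrays, and the difference was 0.04 ± 0.18. Given its SE, the value does not show equal levels.

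The 2 Kcnmb1 probes, listed for 1 transcript record, went opposite ways. Probe 147037 gave 117.3, 138.8 and 128.7 units in SHR and 74.5, 61.3 and 73.5 in WKY, with every SHR array above every WKY array and a difference of 0.88 ± 0.14 (0.57 with 50 units added before log2). Probe 24094 gave 47.7, 85.7 and 55.2 units in SHR and 41.1, 167.2 and 100.4 in WKY. Its difference of -0.54 ± 0.52 was -0.08 without WKY 2 and -1.09 without WKY 1. Both probes were far below the array median of 520.3 units on all 6 arrays, and no direction can be given for the gene.

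**Figure D2:**
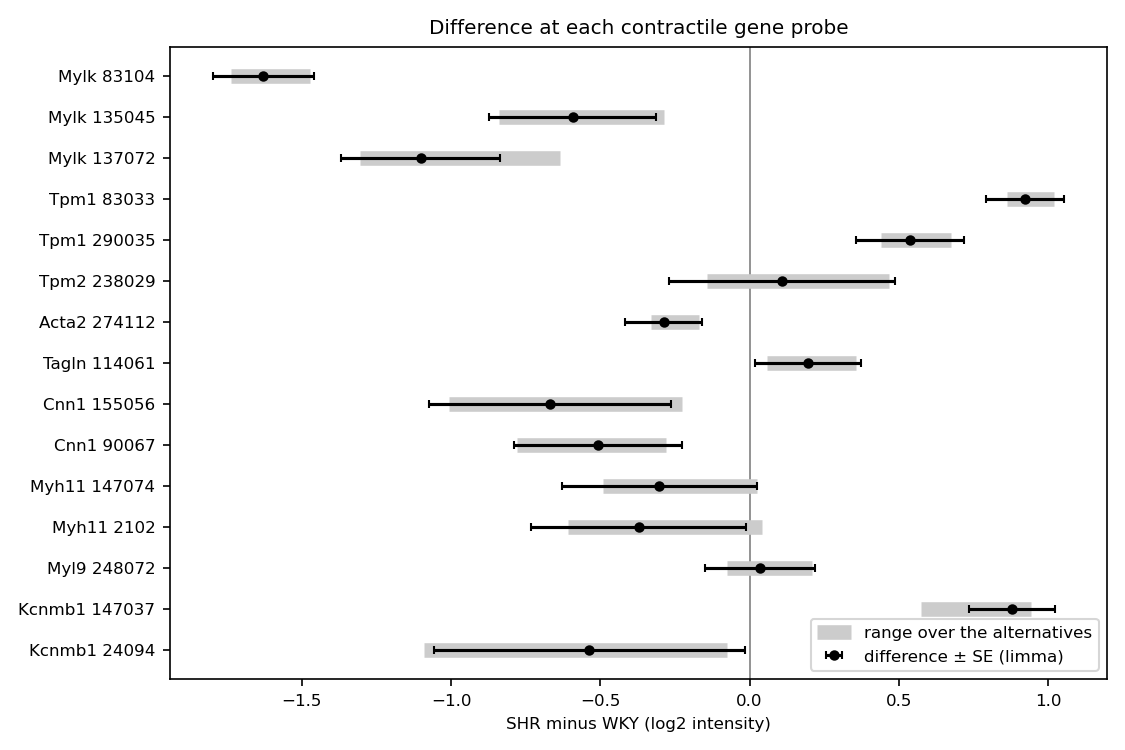
Difference between the strain means at each probe (log2 intensity, SHR minus WKY; points with SE from limma) and the range of that difference over the alternative settings (grey bars). The probes of Mylk, Tpm1, Acta2, Tagln, Cnn1 and Kcnmb1 each kept 1 side of 0, and Tpm2, Myl9 and both Myh11 probes crossed it.

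A property that the choice of genes did not use is the spread of arrays within a strain. The SD over 3 arrays was larger in WKY than in SHR at 14 of the 15 probes, Acta2 being the exception, against 53.2% of all probes tested. Its median over the 15 probes was 0.20 in SHR and 0.49 in WKY, and over all probes tested 0.21 in SHR and 0.22 in WKY. The medians stayed above those of all probes with any 1 WKY array left out, a check added after the values were seen. With WKY 2 left out the median SD of the remaining WKY pair was 0.27 over the 15 probes, and it was 0.36 without WKY 1 and 0.30 without WKY 3, where all probes gave 0.18, 0.16 and 0.20. The corresponding SHR pairs gave 0.14 to 0.18. The probes share RNA and arrays and several share a gene, so they are not independent, and no test is given.

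The high array was not the same for all genes. WKY 2 was the highest WKY array at 9 of the 15 probes, among them those of Cnn1, Tpm2, Tagln, Myl9 and Acta2, against 31.9% of all probes. WKY 1 was highest at 4, including both Myh11 probes, and WKY 3 at 2, both of Mylk, against 36.9% and 31.2% of all probes. At Cnn1 probe 155056, WKY 2 lay 0.88 above and WKY 3 0.67 below the mean of its strain, and at Myh11 probe 2102 WKY 1 lay 0.82 above it. In SHR the deviations were smaller, with SHR 3 highest of its strain at 8 probes (33.8% of all probes) and SHR 2 lowest at both Cnn1 probes and at Myh11 probe 147074. Bulk RNA cannot tell fewer cells that transcribe these genes in a pool from less of their RNA per cell.

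**Figure D3:**
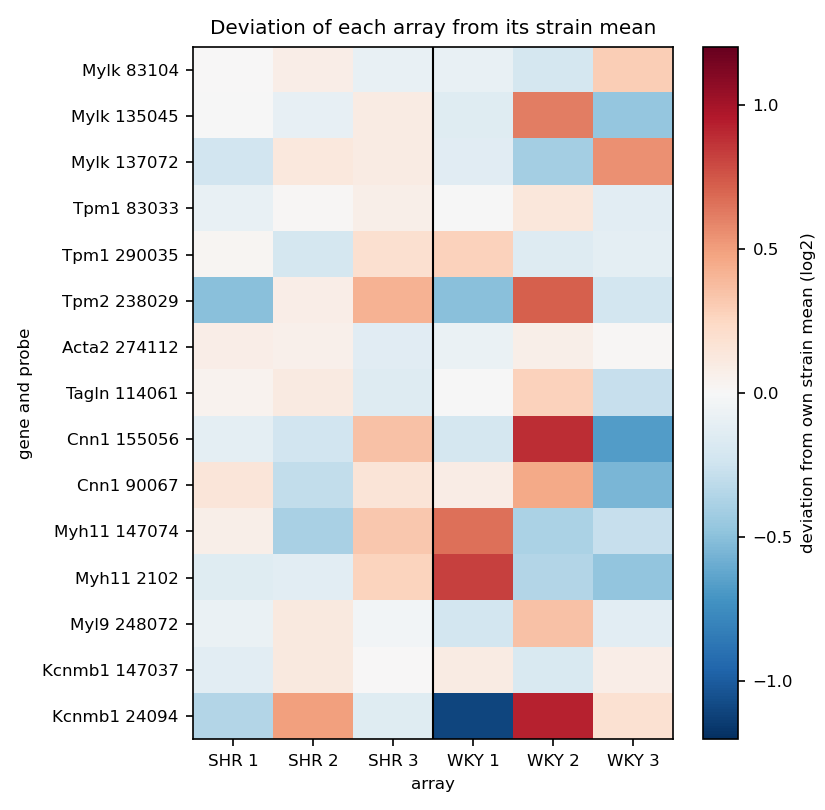
Deviation of each array from the mean of its own strain (colour, log2 units) for the 15 probes (rows) and 6 arrays (columns). WKY 2 is high at Cnn1 and Tpm2, WKY 1 is high at Myh11, and the SHR columns are paler.

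Markers of cells that also transcribe contractile genes were read on the same arrays. Of 8 pericyte markers, all with a probe, 4 were above 0 and 4 below, with a median of -0.01. Their summed level, as the mean of centred log2 values, ranged from -0.22 to -0.004 in SHR and from -0.05 to 0.24 in WKY, with WKY 2 the highest array. Rgs5, a regulator of G-protein signalling, differed by -0.88 ± 0.37 and Cspg4, the NG2 proteoglycan, by -0.76 ± 0.28 (adjusted p = 0.655 and 0.622 in limma). Without SHR 3 they gave -0.54 and -0.50, and Rgs5 was dim, at 34.4 to 133.6 units.

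For fibroblast and meningeal markers the mean level of the list ranged from -0.06 to 0.60 in SHR and from -0.47 to -0.20 in WKY, with no overlap. Singly, 2 of the 10 measured genes were without overlap, against 13.8% of all probes, and 7 were above 0, with a median of 0.62. These 2 were Aldh1a2 (1.49 ± 0.14) and Slc6a13 (1.62 ± 0.34), at an adjusted p of 0.0853 and 0.417 in limma. Lum (1.46 ± 0.58), Dcn (1.24 ± 0.50) and Crabp2 (1.035 ± 0.50) were also above 0, with overlapping arrays. The collagen genes Col1a1 and Col1a2 gave -0.02 ± 0.17 and 0.20 ± 0.16, and 3 of the 10 genes were below 0. At an unadjusted p under 0.05 in limma, 4 of the 10 were higher and 0 lower in SHR, where 7.65% of all probes reached that p. Striated muscle markers, which share actin and tropomyosin relatives with smooth muscle, had 15 of 16 genes measured and 10 above 0. Tnnt2, a cardiac troponin gene, gave 1.40 ± 0.29 and Myh2, a skeletal myosin, 1.31 ± 0.32 (adjusted p = 0.4 and 0.511). The muscle regulators Myod1 (-0.91 ± 0.50) and Myog (-0.64 ± 0.42) were on the other side of 0. Of these, Tnnt2, Myod1 and Myog were dim, Tnnt2 with 47.4 to 214.2 units. The part of these cell types in the Mylk and Tpm1 differences was not tested.

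Endothelial markers had 5 of 7 genes above 0 and overlapping arrays. Kdr, a receptor of vascular endothelial growth factor, gave 0.92 ± 0.40 and Tek, the angiopoietin receptor, -0.50 ± 0.26 (adjusted p = 0.655 and 0.689). Tek was -0.28 without WKY 2 and -0.76 without WKY 1. Its other probes gave 0.69 and -0.38, on opposite sides of 0, and the other Kdr probe gave 1.08. Among markers of the brainstem's own cells, 6 of 7 astrocyte genes, 5 of 5 oligodendrocyte genes and 6 of 6 microglial genes exceeded the array median on all 6 arrays, as did 3 of 5 neuronal genes. In the astrocyte, neuronal and microglial lists the 2 genes of smallest unadjusted p did not pass. They were Aldh1l1 (-0.45 ± 0.16) and S100b (0.16 ± 0.16) for astrocytes, Snap25 (-0.59 ± 0.33) and Stmn2 (0.26 ± 0.15) for neurons, and Itgam (-0.40 ± 0.33) and Ptprc (-0.28 ± 0.23) for microglia. Without WKY 2 Snap25 was -0.25, without WKY 3 Itgam was -0.08, and without SHR 3 Ptprc was -0.15. Stmn2 was 0.16 without SHR 2. Snap25 was dim, at 36.9 to 104.3 units, and gave -0.32 with 50 units added before log2. The other probe of Stmn2 gave 0.38 and that of Ptprc 0.05.

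Oligodendrocyte markers had 5 of 5 measured genes below 0 and a median of -1.01, with SHR 2 inside the WKY range of the list's mean level. The myelin gene Mobp gave -1.46 ± 0.51, with -0.23 and -2.02 at its other probes, and Mbp gave -1.01 ± 0.44 (adjusted p = 0.587 and 0.655). Mbp was -1.53 without SHR 2 and -0.64 without SHR 3.

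The other genes of the contractile pathway, 79 in 6 lists that hold none of the 10 genes, had 60 genes with a tested probe. Of these, 34 were above and 26 below 0, with a median of 0.03, and 0 passed over all probes in limma in either direction, the smallest adjusted p being 0.531. At an unadjusted p under 0.05 there were 4 higher and 3 lower in SHR, or 11.7% against 7.65% of all probes. No pathway gene passed in any of the alternatives run, where 1 to 10 had an unadjusted p under 0.05.

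Thin filament genes had 12 of 17 measured and a median of -0.01, 6 on either side of 0. Tmod2, a tropomodulin that caps actin filaments, gave -0.50 ± 0.19 and Tmod1 0.36 ± 0.22, with -0.37 at its other probe (adjusted p = 0.622 and 0.707). Myosin and kinase genes had a median of -0.0035 over 9 of 11 measured, 4 above and 5 below 0. Myh9, the non-muscle myosin heavy chain, gave 8438, 7953 and 7284 units in SHR against 775.3, 4833 and 2996 in WKY. WKY 1 stood far below the other arrays. The difference of 1.81 ± 0.64 was 1.05 without WKY 1, and the other Myh9 probes gave 0.21 and 0.18 (adjusted p = 0.588 in limma). Ilk, a kinase of focal adhesions, gave -0.17 ± 0.12 (adjusted p = 0.746), and Mylk2 (-0.34 ± 0.33) and Mylk3 (-0.08 ± 0.27), the kinases of skeletal and cardiac muscle, overlapped between the strains.

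Opposing the kinase, Ppp1r12a, the targeting subunit of the myosin phosphatase, gave 0.01 ± 0.15 (adjusted p = 0.988 in limma). Pde5a, which breaks down cyclic GMP, and Irag1, a target of the cyclic GMP kinase, gave -0.40 ± 0.31 and 0.17 ± 0.14 (adjusted p = 0.756 and 0.777). Pde5a was -0.05 without SHR 1 and -0.61 without SHR 3.

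The calcium and BK channel list had 10 of 14 genes measured, 5 on either side of 0. Kcnma1, the pore-forming subunit that the Kcnmb1 product accompanies, gave 462.0, 480.3 and 533.7 units in SHR and 363.8, 394.4 and 323.9 in WKY. The strains were separated at that probe, by 0.45 ± 0.14 (adjusted p = 0.569 in limma), and its other probes gave -0.32 and 0.96. Orai1, the store-operated calcium channel, gave -0.45 ± 0.16 (adjusted p = 0.599). Calm2 and Calm3, which encode calmodulin, gave 0.04 ± 0.13 and -0.05 ± 0.25.

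Filament and attachment genes had 13 of 15 measured, 7 above and 6 below 0. Synpo2, an actin-bundling protein of muscle, gave 1842, 1955 and 1427 units in SHR and 2665, 2457 and 3111 in WKY. Every SHR array was below every WKY array, at -0.66 ± 0.18 (adjusted p = 0.531), and the other probe gave -0.06. Csrp2, a LIM domain protein of smooth muscle, gave 0.70 ± 0.24 with SHR 2 inside the WKY range (adjusted p = 0.585). Of the transcription factors, 5 of 8 were measured, 4 above and 1 below 0. Srf gave 0.08 ± 0.15 and -0.13 at its other probe, and Myocd was dim, with 183.9, 45.9 and 84.0 units in SHR and 67.5, 50.4 and 64.5 in WKY (0.56 ± 0.48, adjusted p = 0.781). Mrtfa, a coactivator of Srf, gave -0.33 ± 0.21 and Klf4, which represses contractile genes, 0.30 ± 0.17 (adjusted p = 0.716 and 0.693). Without SHR 3 these were -0.17 and 0.17, and without SHR 1 Mrtfa was -0.50 and Myocd 0.04, while Myocd was 1.04 without SHR 2.

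**Figure D4:**
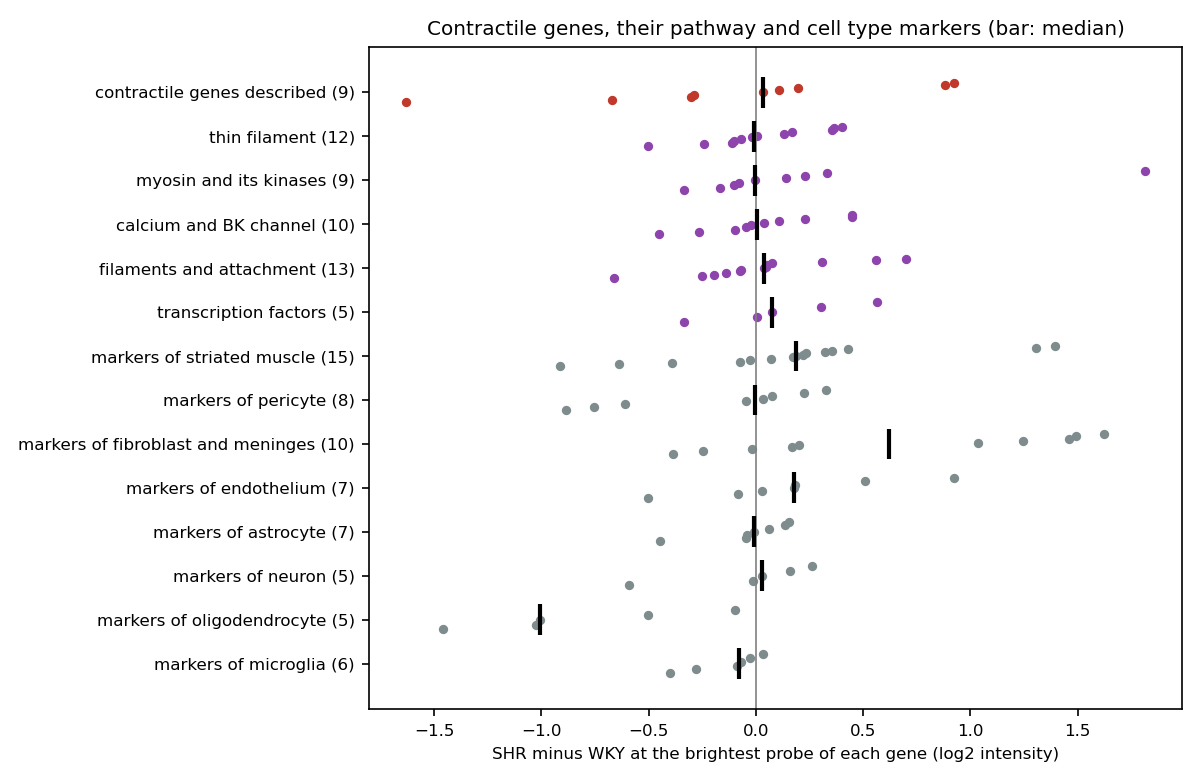
Difference between the strains (log2 intensity, SHR minus WKY) at the brightest probe of each gene, 1 row per gene list with its number of genes and a bar at the median. The 5 pathway lists drawn (purple) have medians between -0.01 and 0.08, and the contractile genes described (red) extend from Mylk at -1.63 to Tpm1 at 0.92.

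Genes with the array pattern closest to Mylk probe 83104 were sought among 15890 probes with 1 symbol and 6 valid values, by the root mean square distance of log2 values centred on their own mean. Mob1a, an adaptor of Hippo pathway kinases, was nearest at 0.14, where Mylk itself varied by 0.83 around its mean. It gave 3029, 2896 and 2713 units in SHR and 8391, 6446 and 8831 in WKY, with the same lowest and highest WKY array as Mylk. Sox5, a transcription factor (0.18), Ptprj, a receptor tyrosine phosphatase (0.28), and Apol3l1 (0.30) followed. Sox5 and Apol3l1 were dim, at 36.9 to 137.0 and 54.3 to 372.3 units. Their differences of -1.45 and -2.11 were -0.85 and -1.53 with 50 units added before log2.

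For Tpm1 probe 83033, which varied by 0.47 around its mean, the nearest were Clmp, a cell adhesion protein, at 0.09, Rgs4, a regulator of G-protein signalling, at 0.10, and Zfp597 and Nell1, both at 0.14. Clmp gave 2087, 2512 and 2394 units in SHR and 1051, 1364 and 1094 in WKY. None of the 8 genes was in a pathway or marker list. These likenesses rest on 6 arrays and mostly on the strain difference itself, so they describe the arrays only.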

How the data were processed

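Per the labels, the authors read background-subtracted spots with CodeLink software, removed values below negative controls plus 2 SD and quantile normalized the arrays; no source used here states a software version or genome build. The deposited series table holds this normalized intensity on a linear scale (median 520.3 in each column) and was the main source. The deposited per-sample intensity, with array medians from 439 to 572, was an alternative. In the series table, 615 values per array are not above 0 and were set to missing. Log2 was taken with no offset.

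Probes with 3 valid values in 1 strain and at least 2 in the other (33249) were tested with limma 3.58.1 (lmFit, eBayes; R 4.3.3) for SHR minus WKY. The test was two-sided, and p was adjusted by Benjamini-Hochberg over these probes, with 0.05 as threshold. Gene lists used the brightest tested probe of a gene; 1 pathway list counts in the totals but is not reported here on its own. Probe names came from the platform annotation. The 10 genes, the lists and the rules for named genes were chosen with earlier results of these data known. Named were all probes of the 10 genes, fixed pathway genes, the 2 genes of smallest unadjusted p in each list, and the 4 nearest in array pattern to Mylk and to Tpm1. Other list members mentioned (Mylk2, Mylk3, Calm2, Calm3, Myod1, Myog, Col1a1, Col1a2, Lum, Dcn, Crabp2) were picked after their values were seen. On simulated data with 33249 probes, limma recovered 25.4% of the 2-fold, 76.1% of the 4-fold and 75.8% of the 8-fold changes and called 5 probes that had none. The simulation used normal noise, shuffled the observed SDs over probes and changed only a small share of the probes. These percentages therefore do not give the power of these arrays. Figures were drawn with matplotlib 3.10.9.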

Additional observations from a re-analysis of the deposited data

How the results depend on the processing

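The count of probes past the adjusted threshold was 0 in the main setting and moved with the choices. It was 6 with 50 units added before log2, 5 with probes valid on all 6 arrays, 18 without the dimmest 25% of probes, 28 with an intensity trend and robust prior, 10 with array weights and 13 at an adjusted p of 0.10. It was 0 with the 4 settings on the per-sample tables and without each array in turn. A replicate block on the array numbers also gave 0, with 2798 probes at an unadjusted p under 0.05, and 0 pathway genes passed. In this balanced layout the block cannot change the difference of a probe valid on all 6 arrays. The median of the 15 contractile probes (-0.30) and the 9 below 0 were therefore the main values again. Deviations of same-numbered arrays correlated at 0.0011, 0.22 and -0.129, and those of other pairs between -0.25 and 0.268, so the numbers were not taken to pair the arrays. The median difference of all probes was 0.12 with unnormalized intensities, where 1542 probes were higher and 846 lower at an unadjusted p under 0.05. Median centring gave 904 and 1786, and the main setting 1212 and 1333.

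The median of the contractile probes lay between -0.46 and -0.13 over 16 alternatives. The number below 0 was 9 to 11 without single arrays and 5 without the dimmest probes, where only 10 of the 15 were tested. Without single arrays, Myh11 probe 2102 lay between -0.61 (without WKY 3) and 0.0403 (without WKY 1), where it changed direction. Aldh1a2 (adjusted p = 0.0205 and 0.0053 in limma) and Mob1a (adjusted p = 0.0374 and 0.00964) passed without the dimmest probes and with the intensity trend, and in no other alternative run at 0.05. Other causes of these changes were not tested. Dim spots limit both Kcnmb1 probes, 2 of the Mylk probes and Myh11 probe 2102. These, Acta2 and Tpm1 probe 290035 are the 7 of the 15 probes below the array median (520.3 units) on all 6 arrays. Mylk probe 83104 was below that median on the 3 SHR arrays.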
